A study of Mus musculus with 9 samples.

Results

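Collagens are the main structural proteins of the extracellular matrix, and each is a triple helix of 3 chains that are encoded by separate genes or by repeated copies of one. Messenger RNA levels of the collagen genes were examined in the hippocampus of 4 Nestin;BrafKE/+ and 5 Braf+/+ mice. The genes were chosen by name alone, as those with a symbol of Col, a number, the letter a and a second number and with a mean of at least 10 normalised counts over the 9 libraries. Of the 18275 genes in the deposited table, 43 had such a symbol and 42 reached that mean. Col28a1, with a mean of 9.99, lay just below it and was not tested, and Col6a6, with a mean of 11.4, was the lowest gene kept. Of the 42 genes, 41 had a mean of at least 10 in both groups. The exception was Col17a1, whose mean was below 10 in Nestin;BrafKE/+.

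Both groups were adult male mice labelled C57BL/6N, and each library came from the hippocampus of 1 animal. Nestin;BrafKE/+ mice were heterozygous for a conditional knock-in of the kinase mutant K499E at the Braf locus, which is recombined by a Nestin-Cre transgene. Nestin-Cre acts in neural stem cells from the embryonic period, so that neurons, astrocytes and oligodendrocytes carry the mutation, and Braf itself stays under its own promoter. Braf+/+ mice were littermates with 2 wild-type Braf alleles. The sources used here do not state whether they carried Cre. The library names fall into 3 series, here called A (Nestin;BrafKE/+ replicate 1 and Braf+/+ replicates 1, 2 and 3), B (Nestin;BrafKE/+ replicates 2 and 3 with Braf+/+ replicate 4) and C (Nestin;BrafKE/+ replicate 4 with Braf+/+ replicate 5).

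In the brain, fibrillar collagens such as types I, III and V are made mainly by fibroblasts of the meninges and around vessels, and type IV collagen is the network of the vascular basement membrane, laid down by endothelial and mural cells. Neurons make a few collagens of their own. Col25a1 encodes a transmembrane collagen first known from amyloid plaques, and Col19a1 encodes a collagen made by interneurons and linked to synapse formation. Fibril-associated collagens, such as types IX, XII and XVI, decorate the surface of fibrils or link them to other matrix. In bulk tissue, fewer cells of a type and less RNA per cell cannot be told apart.

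The promoters of 3 collagen genes are shown, of which only Col16a1 passed the threshold of the comparison given below. Col16a1 was higher in Nestin;BrafKE/+, Col1a2 encodes the chain that assembles with that of Col1a1, the other gene that was higher, and Col25a1 had the highest normalised count of all 42. Each sequence is the 250 bases before the annotated start, from RefSeq on GRCm38.p6, written 5′ to 3′ on the coding strand. Capitals mark matches on either strand to the motif GGGCGG, known as the GC box, and to the pentamer of the CCAAT box. The windows are chr4:130047590-130047839 for Col16a1, chr6:4505368-4505617 for Col1a2 and chr3:130180595-130180844 for Col25a1, all on the plus strand.
Col16a1: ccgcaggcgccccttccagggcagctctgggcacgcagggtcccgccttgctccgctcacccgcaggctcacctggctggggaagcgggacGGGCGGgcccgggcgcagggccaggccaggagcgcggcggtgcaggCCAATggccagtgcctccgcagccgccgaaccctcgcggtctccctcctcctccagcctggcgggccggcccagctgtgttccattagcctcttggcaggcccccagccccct
Col1a2: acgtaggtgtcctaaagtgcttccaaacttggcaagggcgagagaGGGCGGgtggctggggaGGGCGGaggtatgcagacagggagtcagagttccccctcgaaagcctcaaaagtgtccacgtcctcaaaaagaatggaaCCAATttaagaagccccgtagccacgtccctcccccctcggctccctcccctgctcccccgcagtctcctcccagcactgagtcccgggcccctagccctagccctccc
Col25a1: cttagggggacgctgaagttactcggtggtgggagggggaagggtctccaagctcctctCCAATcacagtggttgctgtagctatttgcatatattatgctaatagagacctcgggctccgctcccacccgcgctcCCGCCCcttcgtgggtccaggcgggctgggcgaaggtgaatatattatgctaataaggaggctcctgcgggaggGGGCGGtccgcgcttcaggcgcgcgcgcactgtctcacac

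The RefSeq table held 36 such windows for 33 of the 42 genes. The genes without one were Col1a1, Col2a1, Col4a3, Col5a2, Col9a3, Col12a1, Col14a1, Col22a1 and Col26a1. A GC box was present in 61.1% of the collagen windows and in 32.7% of all 32851 windows, and a CCAAT box in 36.1% and 33.8%. A TATAAA sequence was found in 11.1% of the collagen windows and 12.4% of all windows. The AP-1 element TGANTCA, with N for any base, was found in 1 collagen window, that of Col6a1, and in 6.75% of all windows. The sequence CCGGAA, bound by ETS factors, was found in 0 of the collagen windows and in 12.0% of all windows. These shares describe letters in a window, and binding was not measured.

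Braf, the targeted gene, had 2469, 2190, 2144 and 2252 normalised counts in the 4 Nestin;BrafKE/+ libraries and 2790, 2680, 2635, 3030 and 2795 in the 5 Braf+/+ libraries. The groups did not overlap, and in limma the log2 fold change was -0.30 (SE 0.07; adjusted p = 0.038). This value sums both alleles and does not show the mutation. The call was lost in 11 of 22 alternative settings. One of these was leaving out Braf+/+ replicate 4, the only control of series B (log2 fold change -0.20, adjusted p = 0.203, limma).

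Library totals ran from 19551312 to 20091532 normalised counts. Of 12 hippocampal neuron markers, all 12 were tested and none was listed at 0, with summed levels of 25770 to 27570 in Nestin;BrafKE/+ and 23500 to 24670 in Braf+/+. Of these, 4 passed the threshold, Wfs1 and Fibcd1 as higher and Dsp and Lct as lower, where 2.88% of all genes passed. An unadjusted p under 0.05 in limma was found for 5 of them (41.7%), beside 18.5% of all genes. Marker genes of the choroid plexus set 2 control libraries apart. The sum of 12 such markers was 395900 in Braf+/+ replicate 2 and 116500 in Braf+/+ replicate 4, against 1616 to 25390 in the other 7 libraries. Without these 2 libraries 0 collagen genes passed the threshold in limma (9 had an unadjusted p under 0.05, beside 8 with all libraries). Far fewer genes of any kind passed in that fit than in the reported one, as given in the closing section on processing. The share of all genes at an unadjusted p under 0.05 in that fit is not given here. Single values without these 2 libraries are given for the genes that moved with them. The fit compares genotypes within series, and Braf+/+ replicate 4 is the only control of series B. In any fit without it, Nestin;BrafKE/+ replicates 2 and 3 have no control in their series and do not add to the fold change. In the same way, series A does not add to it without Nestin;BrafKE/+ replicate 1.

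The level of the collagen genes per kb of exon differed widely, also within a class, from 182 to 3.70 (Col4a3) among basement membrane genes. The length counts all annotated exons of a gene together, and so can exceed that of its main transcript. Col4a2 and Col4a1, the chains of the common basement membrane network, had means of 182 and 144 normalised counts per kb of exon over the 9 libraries. Col9a3 (144), Col6a1 (143), a chain of the beaded filaments of type VI collagen, and Col25a1 (114) came next. The fibrillar genes reached 71.0 per kb for Col11a2, 34.3 for Col1a1 and 24.1 for Col1a2, while Col2a1, the collagen of cartilage, was at 2.70. The 8 basement membrane genes gave 27.9% of the summed normalised counts of the 42 genes, the 11 fibrillar genes 22.2%, the 5 neuronal or transmembrane genes 19.8%, the 8 fibril-associated genes 12.7%, and the 10 remaining genes, those of types VI, VII, VIII and XXVI, 17.3%.

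**Figure D1:**
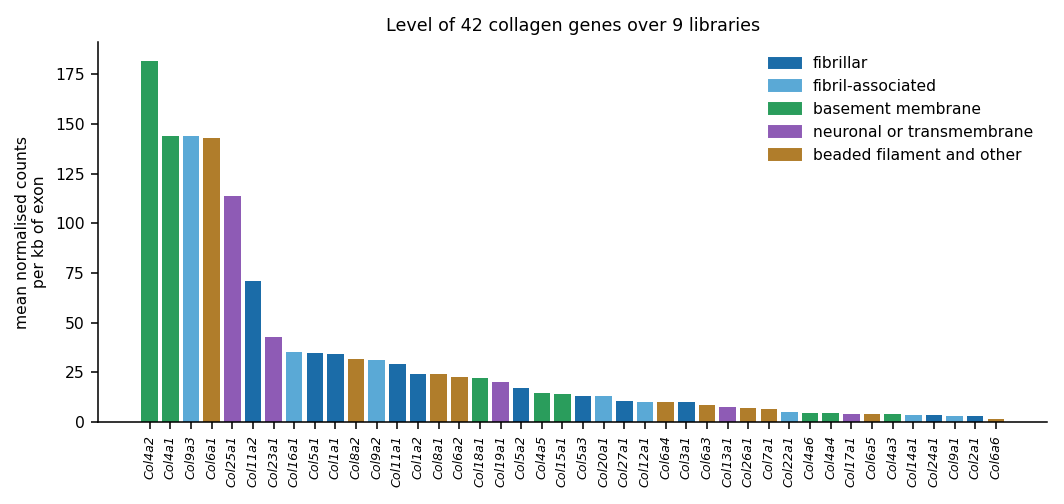
Mean level of each of the 42 collagen genes over all 9 libraries, in normalised counts per kb of exon (y axis), ordered from high to low and coloured by class. Col4a2, Col4a1, Col9a3, Col6a1 and Col25a1 are above 100 per kb, and no other gene is above 71.0.

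The summed level of all 42 genes was 10010 to 10510 normalised counts in Nestin;BrafKE/+ and 9255 to 12170 in Braf+/+, so that the groups overlapped. The basement membrane genes summed to 2887 ± 150 (SD, n = 4) normalised counts in Nestin;BrafKE/+ and to 2888 ± 168 (SD, n = 5) in Braf+/+. The fibrillar genes summed to 2443 ± 365 (SD, n = 4) and 2189 ± 214 (SD, n = 5), and the neuronal or transmembrane genes to 2094 ± 80.1 (SD, n = 4) and 2020 ± 133 (SD, n = 5). In each of these classes the difference between the means was smaller than 1 SD of the group with the larger spread.

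The 2 genotypes were then compared gene by gene, to ask which collagen transcripts differ with the mutant allele. Of the 42 genes, 2 passed the threshold of an adjusted p under 0.05, Col1a1 and Col16a1, and both were higher in Nestin;BrafKE/+. That is 4.76% of the collagen genes, beside 2.88% of all 16196 genes tested. Among all genes 1.52% passed as higher and 1.36% as lower, and 0 collagen genes passed as lower (4 did in limma without the series term). An unadjusted p under 0.05 was found for 8 collagen genes (19.0%) and for 18.5% of all genes. Nestin;BrafKE/+ and Braf+/+ values were fully separate for 4 collagen genes (9.52%), Col1a1, Col16a1, Col9a2 and Col4a3, and for 15.7% of all genes. The share at an unadjusted p under 0.05 was close to that of all genes, and the share with fully separate groups was below it.

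The 42 log2 fold changes ran from -1.67 for Col24a1 to 0.96 for Col1a1, with 18 above 0 and 24 below. Their median was -0.03, against 0.00 for all genes. Their median size regardless of sign was 0.24, against 0.12 for all genes, and their median SE was 0.27, against 0.10 for all genes. By class the median log2 fold change was 0.23 for fibrillar genes (7 of 11 higher), -0.16 for fibril-associated genes (3 of 8 higher), -0.13 for basement membrane genes (3 of 8 higher), -0.09 for neuronal or transmembrane genes (2 of 5 higher) and -0.07 for the remaining class (3 of 10 higher).

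**Figure D2:**
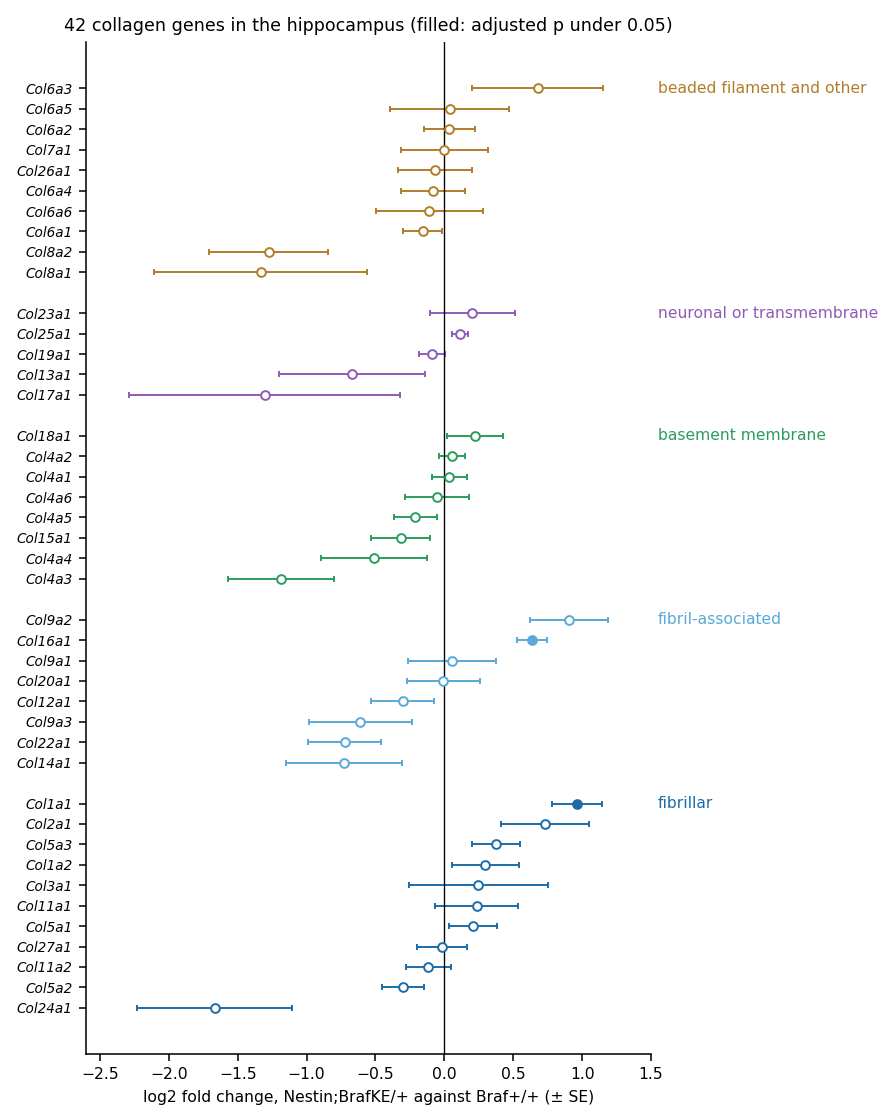
Log2 fold change of each collagen gene in Nestin;BrafKE/+ against Braf+/+ (x axis; bars are ± 1 SE of the limma fit, with 4 and 5 libraries), grouped by class. The 2 filled points, Col1a1 and Col16a1, passed an adjusted p under 0.05, and 18 of 42 points lie above 0.

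Among the fibrillar collagens, Col1a1, which encodes the α1 chain of type I collagen, was higher in Nestin;BrafKE/+. The gene lies at chr11:94827050-94843868 on GRCm39, on the plus strand. It had 271, 376, 327 and 261 normalised counts in Nestin;BrafKE/+ and 176, 183, 133, 119 and 183 in Braf+/+. All 4 Nestin;BrafKE/+ libraries were above all 5 Braf+/+ libraries, with means of 309 ± 53.2 (SD, n = 4) and 159 ± 30.6 (SD, n = 5). In limma the log2 fold change was 0.96 (SE 0.18; adjusted p = 0.0214). The difference was 0.73 within series A, 1.56 within series B and 0.51 within series C. An exact permutation test, two-sided, gave p = 0.00794 across all 9 libraries and p = 0.0417 with permutation restricted to each series, the smallest that either can give. The first of these follows largely from the lack of overlap, which 15.7% of all genes tested shared. Col1a1 was not called without Nestin;BrafKE/+ replicate 1 (1.11, adjusted p = 0.0825), without Nestin;BrafKE/+ replicate 3 (0.93, adjusted p = 0.0653), without Braf+/+ replicate 4 (0.64, adjusted p = 0.115, limma) or without Braf+/+ replicates 2 and 4 together (0.69, adjusted p = 0.133, limma).

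Col1a2, which encodes the α2 chain that joins 2 α1 chains in type I collagen, was looked at beside Col1a1 after the values had been seen. It had 275, 371, 324 and 361 normalised counts in Nestin;BrafKE/+ and 284, 461, 177, 244 and 246 in Braf+/+. The groups overlapped, with the highest and the lowest of the 9 values both in Braf+/+, and the log2 fold change was 0.30 (95% interval -0.24 to 0.84; adjusted p = 0.558, limma). The ratio of Col1a1 to Col1a2 was 0.985, 1.013, 1.009 and 0.724 in Nestin;BrafKE/+ and 0.619, 0.397, 0.753, 0.486 and 0.744 in Braf+/+. Of the 4 Nestin;BrafKE/+ ratios, 3 were above all 5 Braf+/+ ratios and that of replicate 4 lay among them. The 2 lowest ratios were those of Braf+/+ replicates 2 and 4, the libraries with high choroid plexus markers. With series accounted for, the log2 ratio was higher by 0.66, and by 0.46 to 0.91 leaving out 1 library. Exact permutation gave p = 0.0833 within series, and p = 0.0476 across all libraries for the difference that ignores series. The difference was 0.79 in series A, 1.05 in series B and -0.04 in series C. Col3a1, the type III collagen that occurs with type I in many tissues, ranged from 53.8 to 141 in Nestin;BrafKE/+ and from 29.9 to 165 in Braf+/+, and its log2 fold change was 0.25 (SE 0.50).

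The fibrillar genes with the highest values were Col11a2 and Col11a1, chains of type XI collagen. Col11a2 had 391, 617, 437 and 584 normalised counts in Nestin;BrafKE/+ and 534, 555, 678, 496 and 461 in Braf+/+, with a log2 fold change of -0.12 (95% interval -0.48 to 0.25). Col11a1 had 335, 724, 264 and 351 against 461, 243, 365, 258 and 363, with a log2 fold change of 0.23 (95% interval -0.43 to 0.90). The groups overlapped for both genes, and the highest Col11a1 value, in Nestin;BrafKE/+ replicate 2, stood well above the other 8.

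Col24a1, a fibrillar collagen of developing bone and cortex, had low values of 6.02, 9.93, 18.0 and 6.98 in Nestin;BrafKE/+ and 19.9, 100.02, 22.9, 17.1 and 40.0 in Braf+/+. It had the lowest log2 fold change of the 42 genes, -1.67 (SE 0.56, adjusted p in limma 0.146), with 3 of 4 Nestin;BrafKE/+ libraries below all Braf+/+ libraries. Col2a1 had 24.1, 41.7, 31.9 and 31.9 against 26.8, 13.0, 24.9, 14.1 and 19.0, for a log2 fold change of 0.73 (limma SE 0.32, adjusted p = 0.254). This was 0.42 without Braf+/+ replicate 4 and 0.25 without Braf+/+ replicates 2 and 4 (adjusted p = 0.680 and 0.797, limma). Neither gene passed the threshold. The other 5 fibrillar genes, Col5a1, Col5a2, Col5a3, Col27a1 and Col3a1, had log2 fold changes from -0.30 to 0.38, and 0 of them passed.

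Col16a1 was the fibril-associated gene that passed the threshold. It encodes type XVI collagen, a minor collagen that connects fibrils and cell-surface integrins with the surrounding matrix, and lies at chr4:129941154-129993076 on GRCm39, on the plus strand. Its values were 339, 293, 352 and 294 normalised counts in Nestin;BrafKE/+ and 219, 196, 188, 201 and 222 in Braf+/+. The groups did not overlap, and their means were 320 ± 30.7 (SD, n = 4) and 205 ± 14.7 (SD, n = 5). In limma Col16a1 was higher by a log2 value of 0.64 (SE 0.11) with an adjusted p of 0.0157, and the difference was 0.76 in series A, 0.68 in series B and 0.40 in series C. The same exact permutation tests gave 0.00794 and 0.0417, the first again following largely from the lack of overlap. Col16a1 was not called without Nestin;BrafKE/+ replicate 1 (0.56, adjusted p = 0.128), without Braf+/+ replicate 4 (0.61, adjusted p = 0.0933) or without Braf+/+ replicates 2 and 4 together (0.60, adjusted p = 0.140, limma).

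Of the 3 type IX collagen chains, Col9a2 had 129.5, 120.2, 101 and 169 normalised counts in Nestin;BrafKE/+ and 41.7, 75.0, 95.6, 91.4 and 51.0 in Braf+/+. These groups did not overlap either, and the log2 fold change of 0.91 (SE 0.29) did not pass after adjustment (adjusted p = 0.126, limma). Its partner Col9a3 had 602, 225, 565 and 631 in Nestin;BrafKE/+ and 489.8, 969, 598, 1238 and 531 in Braf+/+, with a log2 fold change of -0.61 (limma SE 0.38, adjusted p = 0.429). Col9a1 was low in all libraries, at 10.9 to 20.1. The 3 chains of type IX collagen therefore had log2 fold changes of 0.91, -0.61 and 0.05, of which 0 passed the threshold. Col22a1, a collagen of tissue junctions, had 31.1, 28.8, 34.9 and 36.9 in Nestin;BrafKE/+ and 66.6, 34.0, 76.7, 58.3 and 49.0 in Braf+/+, a log2 fold change of -0.72 that missed the threshold (SE 0.27; adjusted p = 0.178, limma). The other 3 fibril-associated genes, Col12a1, Col14a1 and Col20a1, had log2 fold changes from -0.73 to -0.01.

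The 2 abundant basement membrane chains were close to equal between the groups. Col4a1 (chr8:11248423-11362826, minus strand) had 971, 1107, 1282 and 990.1 normalised counts in Nestin;BrafKE/+ and 1132, 1230.2, 932, 867 and 1150.0 in Braf+/+. Col4a2 (chr8:11362471-11499287, plus strand) had 1287, 1447, 1296 and 1295 against 1439.7, 1082, 1389, 1208 and 1315. The values of the groups overlapped for both genes, whose annotated starts on GRCm39 lie 355 bases apart on opposite strands. The log2 fold change was 0.04 (95% interval -0.25 to 0.32) for Col4a1 and 0.05 (95% interval -0.15 to 0.26) for Col4a2, and both differed in sign between series. Within series A, B and C it was -0.17, 0.46 and -0.22 for Col4a1 and -0.01, 0.18 and -0.02 for Col4a2.

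The minor type IV chains were all much lower than these. Col4a3, one of the chains that replace the common ones in mature kidney and lung basement membranes, had 24.1, 12.9, 18.0 and 26.9 normalised counts in Nestin;BrafKE/+ and 33.8, 73.0, 31.9, 78.3 and 33.0 in Braf+/+. The groups did not overlap, and in limma the log2 fold change was -1.19 (SE 0.39; adjusted p = 0.134). The 2 highest values were in Braf+/+ replicates 2 and 4, and without these 2 libraries the log2 fold change was -0.37 (adjusted p = 0.675, limma), while the remaining 3 Braf+/+ libraries stayed above all 4 Nestin;BrafKE/+ libraries. Col4a5 had 118, 127, 104 and 139.6 against 133, 167, 128, 158 and 123, a log2 fold change of -0.21 (95% interval -0.55 to 0.13). Col15a1, which encodes a collagen at the border between basement membrane and matrix, had 86.3, 75.5, 91.8 and 81.8 against 154, 98.0, 72.7, 105 and 107, a log2 fold change of -0.32 (95% interval -0.79 to 0.16). Col4a4, Col4a6 and Col18a1, the gene of the precursor of endostatin, had log2 fold changes of -0.51, -0.05 and 0.22, and 0 of the 8 basement membrane genes passed.

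Among the neuronal and transmembrane collagens, Col25a1 (chr3:129925150-130393532) had 1555, 1489, 1651 and 1517 normalised counts in Nestin;BrafKE/+ and 1516, 1391, 1389.8, 1405 and 1467 in Braf+/+. Of the 4 Nestin;BrafKE/+ values 3 were above all Braf+/+ values, and the log2 fold change was 0.11 (95% interval -0.02 to 0.24; adjusted p = 0.338, limma). Col19a1 had 256, 246, 237 and 248 against 284, 249, 246, 274 and 261, a log2 fold change of -0.09 (95% interval -0.30 to 0.12). These were among the genes with the narrowest intervals of the 42, and neither passed the threshold. Exact permutation gave p = 0.0317 across all libraries and 0.125 within series for Col25a1, and 0.127 and 0.25 for Col19a1. Col13a1, a transmembrane collagen of the neuromuscular junction, had 10.04, 28.8, 22.0 and 33.9 against 111, 28.0, 29.9, 25.1 and 23.0. Its log2 fold change of -0.67 (SE 0.53) turned to 0.23 without Nestin;BrafKE/+ replicate 1, the only Nestin;BrafKE/+ library of series A. The difference was -2.07 in series A, which holds the Braf+/+ value of 111, 0.003 in series B and 0.54 in series C. Col23a1 ranged from 211 to 313 in Nestin;BrafKE/+ and from 151 to 407 in Braf+/+, with a log2 fold change of 0.20 (SE 0.31). Its 2 highest Braf+/+ values, 407 and 307, were in replicates 2 and 4, and without these libraries the log2 fold change was 0.83 (SE 0.15; adjusted p = 0.0728, limma).

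**Figure D3:**
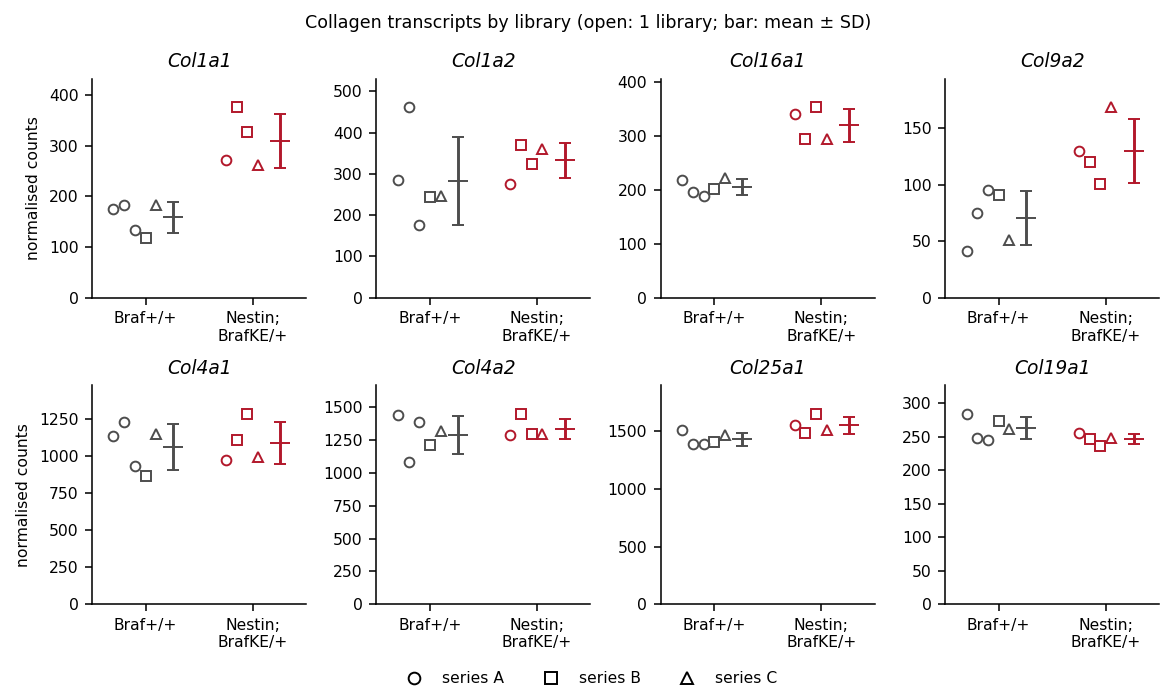
Normalised counts (y axis) of 8 collagen genes in each library, with the mean ± SD of each group beside the points and the marker shape giving the series of library names. The Nestin;BrafKE/+ points lie above all Braf+/+ points for Col1a1, Col16a1 and Col9a2, and the groups overlap for Col1a2, Col4a1, Col4a2, Col25a1 and Col19a1.

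Several collagens followed the libraries with high choroid plexus markers. Ttr, which encodes transthyretin and is among the most abundant choroid plexus transcripts, had 381593 normalised counts in Braf+/+ replicate 2 and 106681 in Braf+/+ replicate 4, against 928 to 22370 in the other 7 libraries. For 7 of the 42 collagen genes (16.7%) these were also the 2 highest libraries, as they were for 7.16% of all genes tested. Col17a1 reached the minimum mean only through them, and among genes with a mean of at least 10 over the other 7 libraries the count was 6 of 41 (14.6%), beside 7.07% of all genes. The 7 genes were Col4a3, Col4a4, Col4a5, Col8a1, Col8a2, Col9a3 and Col17a1. Col8a1, a short-chain collagen of Descemet's membrane and vessel walls, had 698 and 402 in these libraries and 26.8 to 140.1 in the others. Col8a2, its partner chain, had 382 and 312 against 44.7 to 157, and Col17a1, a transmembrane collagen of hemidesmosomes, had 107 and 54.2 against 1.99 to 15.9. Nestin;BrafKE/+ replicate 2, which had the lowest Ttr value, also had the lowest value of Col8a1, Col8a2, Col9a3, Col4a3 and Col17a1. Col4a4 and Col4a5 were lowest in Nestin;BrafKE/+ replicate 3, at 26.0 and 104. The share of all genes that were lowest in Nestin;BrafKE/+ replicate 2 was not counted.

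These 7 genes were picked because their 2 highest values lay in these control libraries. Higher fold changes without the 2 libraries follow in large part from that choice. Over all 9 libraries the log2 fold changes were -1.33 for Col8a1, -1.27 for Col8a2, -0.61 for Col9a3, -1.19 for Col4a3, -0.51 for Col4a4, -0.21 for Col4a5 and -1.30 for Col17a1. Without Braf+/+ replicates 2 and 4 they were 0.26, -0.40, 0.19, -0.37, 0.29, -0.00 and 0.71. The adjusted p values ran from 0.642 to 0.996 in limma, and 4 of the 7 changed sign. Series B then has no control, so that fit rests on Nestin;BrafKE/+ replicates 1 and 4. It thereby also leaves Nestin;BrafKE/+ replicate 2 out of the comparison, and the part of each library in the shift was not tested. Of the other collagens, Col9a2 moved from 0.91 to 1.31, Col13a1 from -0.67 to -1.15 and Col11a1 from 0.23 to -0.19, with 0 past the threshold. All 12 choroid plexus markers had log2 fold changes below 0 and 0 passed the threshold. Of them 4 (33.3%) had an unadjusted p under 0.05 in limma, beside 18.5% of all genes. The part of the choroid plexus in the collagen values was not tested.

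**Figure D4:**
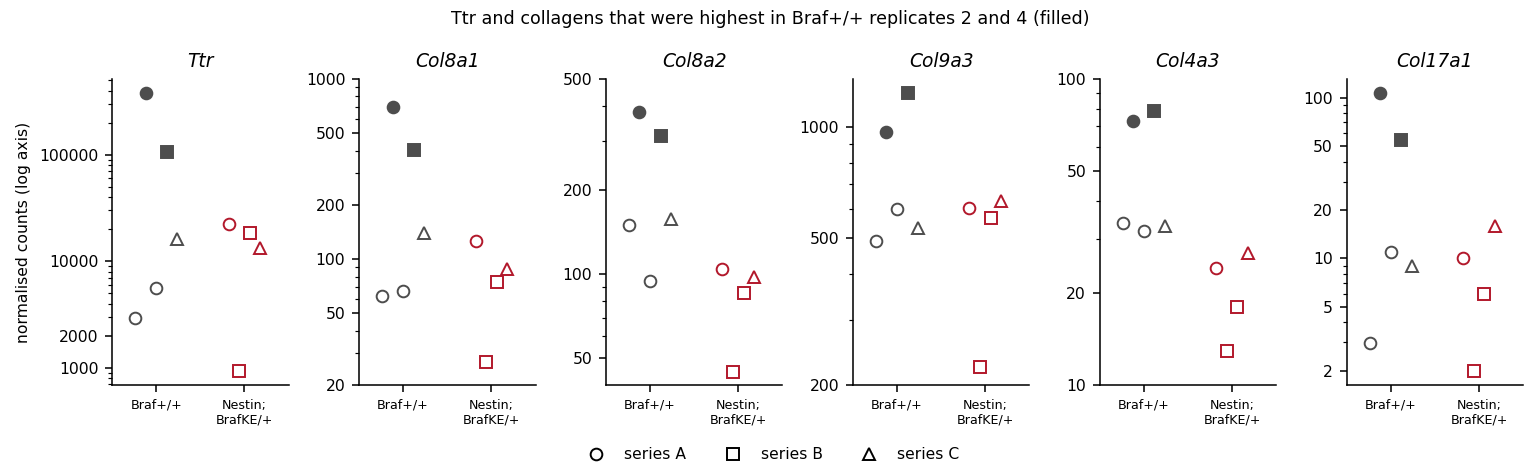
Normalised counts on a log axis for Ttr and 5 collagen genes in each library, with Braf+/+ replicates 2 and 4 filled and marker shapes for the series. The collagens are 5 of the 7 genes chosen because the filled libraries were their 2 highest, so the filled points are highest in every panel by that choice. Nestin;BrafKE/+ replicate 2 is the lowest in these panels, but not for Col4a4 and Col4a5, which are not shown.

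Type VI collagen forms beaded filaments around vessels and in the meninges. Col6a1 had 734, 866, 729.8 and 782 normalised counts in Nestin;BrafKE/+ and 860.5, 1169, 680.0, 826 and 861 in Braf+/+, a log2 fold change of -0.16 (95% interval -0.47 to 0.15). Col6a2, its partner chain, had 214, 300.0, 216 and 274 against 239.5, 349, 196, 230.0 and 219, a log2 fold change of 0.04 (95% interval -0.38 to 0.45). Col6a3, the third chain, had 199.8, 79.5, 155 and 80.8 against 24.8, 101, 94.6, 84.4 and 109, a log2 fold change of 0.68 (SE 0.48) that was 0.04 without Nestin;BrafKE/+ replicate 1, 0.40 without Braf+/+ replicate 1 and 1.07 without either library of series C. The groups overlapped for all 3 chains and 0 passed. The other genes of this class, Col6a4, Col6a5, Col6a6, Col7a1 and Col26a1, had log2 fold changes from -0.11 to 0.04. Col28a1, just below the minimum mean, had 7.03, 5.96, 3.99 and 2.99 in Nestin;BrafKE/+ and 14.9, 11.002, 9.96, 14.1 and 20.02 in Braf+/+.

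Markers of the cells that make fibrillar and basement membrane collagens were set beside these values. Among all genes tested, 2.88% passed the threshold and 18.5% had an unadjusted p under 0.05 in limma. Of 11 leptomeningeal fibroblast markers tested, 9 were higher, 2 were lower and 0 passed the threshold (1, or 9.09%, had an unadjusted p under 0.05 in limma). The sum of all 12 on the list was 1250.0 to 2188 in Nestin;BrafKE/+ and 1014 to 3071 in Braf+/+. Of 12 mural cell markers, 10 were higher and 0 passed (4, or 33.3%, had an unadjusted p under 0.05 in limma), with sums of 5384 to 6033 and 4628 to 6251. Of 12 endothelial markers, 7 were higher and 1 (8.33%) had an unadjusted p under 0.05 in limma. This was Slco1c1, a thyroid hormone transporter, which passed as lower, at -0.58 (adjusted p = 0.0178, limma). The endothelial sums were 6435 to 7028 and 6454 to 7996. The sums of these 3 lists overlapped between the groups. Pdgfrb, a receptor of mural cells and fibroblasts, was separate, at 506 to 554 in Nestin;BrafKE/+ and 404 to 469 in Braf+/+ (log2 fold change 0.28, adjusted p = 0.0944, limma). Higd1b, from the same mural cell list, was also separate but lower, at 21.9 to 33.9 in Nestin;BrafKE/+ and 34.1 to 43.0 in Braf+/+ (log2 fold change -0.54, adjusted p = 0.245, limma). Both genes are named after their values were seen. Of 10 markers of oligodendrocyte precursors, 9 were higher and 1 passed, Cspg4, at 0.65 (adjusted p = 0.00261, limma), and the sums did not overlap, at 7650.0 to 8611 in Nestin;BrafKE/+ and 6199 to 7079 in Braf+/+. The part of these cells in the collagen values was not tested. Thalamic markers, 8 in number, gave 0 past the threshold (1, or 12.5%, at an unadjusted p under 0.05 in limma).

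Genes that act on collagen chains were taken from 6 lists. Beside their counts stand the shares over all genes, 2.88% past the threshold and 18.5% at an unadjusted p under 0.05. Of 21 genes of collagen biosynthesis, from prolyl and lysyl hydroxylases to export from the endoplasmic reticulum, 9 were higher and 12 lower, with a median log2 fold change of -0.08. Among these 1 passed as higher and 1 as lower, and 10 (47.6%) had an unadjusted p under 0.05. Sec24d, a coat protein of the vesicles that carry procollagen, had 381.5, 401, 396 and 416 normalised counts in Nestin;BrafKE/+ and 544.5, 638, 568, 573 and 550.5 in Braf+/+, a log2 fold change of -0.53 (limma SE 0.08, adjusted p = 0.00803). Sparc, a collagen-binding matrix protein made by endothelium and glia, had 6851, 6232, 6676 and 6030.1 against 4789, 5553, 4649, 5075 and 5438, with a log2 fold change of 0.34 (limma SE 0.07, adjusted p = 0.033). The groups did not overlap for either gene. Sec24d was not called without Nestin;BrafKE/+ replicate 1 (adjusted p = 0.0836, limma) or Braf+/+ replicate 4 (adjusted p = 0.0553, limma), and the Sparc call was lost without any 1 of 5 libraries, Nestin;BrafKE/+ replicates 1, 2 and 3 and Braf+/+ replicates 1 and 4 (adjusted p from 0.0505 to 0.200, limma).

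Of 11 collagen-degrading proteases and inhibitors tested, 9 were higher, 1 passed and 3 (27.3%) had an unadjusted p under 0.05. Timp4, an inhibitor of matrix metalloproteinases found mainly in astrocytes in brain, had 821, 929, 845 and 798 normalised counts in Nestin;BrafKE/+ and 621, 577, 604, 543 and 633 in Braf+/+, with no overlap. It was higher by 0.51 on the log2 scale (limma SE 0.08, adjusted p = 0.00941), and it was not called without Nestin;BrafKE/+ replicate 1 (adjusted p = 0.0674, limma) or Braf+/+ replicate 4 (adjusted p = 0.0668, limma). The other 4 lists had 0 genes past the threshold in limma. These were 13 genes of procollagen processing and crosslinking (6 higher; 30.8% with an unadjusted p under 0.05), 9 collagen receptors (4 higher; 22.2% with an unadjusted p under 0.05), 15 laminins, nidogens and perlecan (11 higher; 40.0% with an unadjusted p under 0.05) and 8 small leucine-rich proteoglycans (5 higher; 12.5% with an unadjusted p under 0.05). Their median log2 fold changes were -0.00, -0.01, 0.28 and 0.16.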

How the data were processed

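Stranded mRNA libraries were made from the hippocampi of 9 mice, 1 per animal. The authors trimmed reads with Trim Galore, aligned them to GRCm39 with STAR, quantified genes with Salmon, adjusted for batches that the sources used here do not name, and scaled the values with DESeq2. The deposited table holds 1 normalised signal per gene and library, called normalised counts in the text. Because these values were adjusted before deposit, the read depth is unknown and count models were not used. No per-sample column was left out.

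Genes with a mean of at least 10 were tested on log2(value + 1) with limma 3.58.1 in R 4.3.3 (lmFit, eBayes with a mean-variance trend), with terms for genotype and for the series that the library names form. Two-sided p-values were adjusted over 16196 genes (Benjamini-Hochberg), with a threshold of 0.05. Fold changes are on the log2(value + 1) scale and understate those of low genes. Exact permutation tests were run over all assignments of the genotype labels and over those within series. P-values cover the spread between these animals in values that had already been adjusted for batches. How far that adjustment narrowed the spread is unknown, so the p-values can be too small. The steps were run on simulated data with independent values for each gene and library. Those data held no series effect, no earlier batch adjustment and no shift shared by a library. That run therefore cannot show how such features bear on the calls. Alternatives were other pseudocounts, filters, scalings, model terms and weights, and leaving out each library.

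The collagen genes, their 5 classes and the gene and marker lists were chosen with earlier results of these data known. Named genes were the collagens past the threshold, the 2 highest and the 3 with the lowest p in each class, and list members past the threshold. Gene positions and exon lengths came from Gencode vM39 on GRCm39, in which 99.5% of gene IDs were found. Promoters came from RefSeq on GRCm38.p6, and their coordinates are on that build. Figures were drawn with Python 3.11.15 and matplotlib 3.10.9.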

Additional observations from a re-analysis of the deposited data

Results flagged for a closer look

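Within each group, 84 sets of values (42 genes in 2 groups) were screened for a library far from the rest, by the gap to its nearest neighbour over the range of the group (Dixon's criterion). The screen marked 6 values, where chance alone marks about 4.2. In Braf+/+ replicate 2, Col6a2 had 349 normalised counts against 196 to 239.5 in the other Braf+/+ libraries, Col24a1 had 100.02 against 17.1 to 40.0, and Col6a5 had 90.014 against 22.1 to 34.0. In Braf+/+ replicate 1, Col13a1 had 111 normalised counts against 23.0 to 29.9. In Nestin;BrafKE/+ replicate 2, Col9a3 had 224.5 against 565 to 631 in the other Nestin;BrafKE/+ libraries, and Col4a2 had 1447 against 1287 to 1296.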

How the results depend on the processing

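The 2 collagen calls, Col1a1 and Col16a1, were the same under pseudocounts of 0.5 and 8, no filter, a minimum mean of 50, quantile and median-of-ratios scaling, 4 name prefixes in place of series, array quality weights and robust eBayes. Without the series term 7 collagen genes passed, 3 higher and 4 lower (Col1a1, Col16a1 and Col9a2, and Col4a3, Col8a2, Col22a1 and Col24a1), and without the mean-variance trend 0 passed. Leaving out 1 library at a time gave 0 to 2 collagen genes, all higher, and 42 to 371 genes in all. Without Braf+/+ replicates 2 and 4 together, an alternative chosen after seeing the data, 0 collagen genes and 58 genes in all passed. A series left with a single genotype does not add to the fold change. This holds without Nestin;BrafKE/+ replicate 1, without Braf+/+ replicate 4 or without either library of series C. The count over all genes was 466 in the reported fit, 2260 without the series term, 165 with 4 prefixes, 258 with array weights, 72 without the trend and 927 at an adjusted p under 0.1, where the collagen count remained 2. The causes were not tested. With replicate numbers as a block (replicate block), 1405 genes and the same 2 collagen genes passed. The deviations of same-numbered libraries correlated at -0.39, -0.08, 0.07 and 0.41, so the numbers do not pair the animals.

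The median log2 fold change of fibrillar genes was 0.12 with array weights and 0.12 to 0.31 leaving out 1 library. With a minimum mean of 50, which tests fewer genes, the medians were 0.037 for basement membrane and 0.11 for neuronal or transmembrane genes. Without Braf+/+ replicates 2 and 4 the latter was 0.077, and the values were -0.19 for Col11a1, -0.14 for Col4a1, -0.087 for Col4a2, 0.71 for Col17a1, 0.19 for Col9a3 and 0.26 for Col8a1. Leaving out 1 library turned the sign of 7 named genes, none past the threshold, with ranges of -0.044 to 0.41 for Col11a1, -0.28 to 0.18 for Col11a2, -0.19 to 0.17 for Col4a1, -0.013 to 0.094 for Col4a2, -1.10 to 0.23 for Col13a1, -0.92 to 0.023 for Col9a3 and -0.063 to 0.22 for Col6a2. Braf lost its call in 11 of 22 alternatives. Since read depth is unknown, low genes such as Col6a6 and Col9a1 have no counting interval.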
